A study of Mus musculus with 6 samples.

Results

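The genes described here are 10 chemokine genes, Cxcl13, Cxcl14, Cxcl2, Cxcl16, Pf4, Ccl2, Ccl7, Ccl6, Ccl9 and Ccl24, measured in peritoneal macrophages (PMs). They were taken by name from the 32879 mouse genes to which the deposited transcript records could be assigned, and all 10 had at least 1 record. RNA-seq was performed on sorted PMs, with 3 control and 3 diseased-BWF1 animals and 1 library for each. PMs were gated as F4/80+ and CD11b high cells, among other criteria. Control mice were non-autoimmune [NZW × BALB/c]F1 females aged 33, 33 and 30 weeks. Diseased-BWF1 mice were lupus-prone [NZB × NZW]F1 females aged 31, 31 and 34 weeks with antibodies against double-stranded DNA and severe proteinuria. The groups share the NZW parent and differ in the other parent as well as in disease, so strain and disease cannot be told apart. In the libraries of sorted cells, fewer cells that express a gene and less RNA of it per cell cannot be told apart either.

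Chemokines are small secreted proteins that bind G protein-coupled receptors on leukocytes and direct their migration. CXC chemokines include neutrophil attractants such as Cxcl2 and the B cell attractant Cxcl13, while CC chemokines mainly act on monocytes, eosinophils and T cells. PMs are a known source of Cxcl13, which binds Cxcr5 and draws B1 cells, the innate-like B cells of body cavities, into the peritoneum.

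The libraries held 3629901 to 5003360 counts each, of which 89.1% to 93.0% fell on genes, and 3 counts correspond to 0.652 to 0.888 CPM, a count relative to all counts on genes. The 11 markers of large PMs were detected in every library, with 193010 to 259400 summed normalized counts. Of these 11, edgeR called 0, beside 1.22% of tested genes, and 3 had an unadjusted p under 0.05, beside 13.2%. The 3 were Icam2, Timd4 and Cd68, each with a log2 fold change below 0, and DESeq2 called Cd68 lower. In 5 of the 11, Adgre1, Icam2, Timd4, Cd68 and Lyz2, all diseased-BWF1 mice lay below all control mice, as they did for 11.2% of tested genes, and in Prg4 all lay above. The part of these markers in the lower chemokine values of diseased-BWF1 mice was not tested. Summed B cell markers reached at most 29.0 normalized counts, T and NK cell markers 12.3, mast cell markers 3.04, eosinophil markers 16.1 and mesothelial or stromal markers 8.23. The neutrophil list summed to 795 to 1296 normalized counts, nearly all from Csf3r, while Ly6g and Retnlg had 0 counts in every library. The list for monocytes, small macrophages and dendritic cells differed between mice, with sums of 2074, 5154 and 3437 normalized counts in control mice and 3349, 553 and 199 in diseased-BWF1 mice, mostly from Retnla. Of the 8 genes of this list 5 were tested, with log2 fold changes above 0 for 3 and below 0 for 2. The dendritic cell lectin gene Cd209a was the only gene of the marker lists called in edgeR (log2 fold change -4.34, adjusted p = 0.0117). Its part in the chemokine results was not tested. The p-values of edgeR and DESeq2 set a group difference against the spread between these mice, estimated with information from other genes.

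The bases before the transcription start are shown for 5 of the chemokine genes to describe their matches to short motifs of known promoter elements. Sequences are from RefSeq on GRCm38.p6 and run 5′ to 3′ on the strand of the gene, and each ends at the base before the start. Capitals mark matches to 4 motifs, searched on both strands in the 250 bases before the start. The TATA box was searched as TATAAA, the motif of ETS factors as ACTTCC and the motif of AP-1 as TGANTCA. The NF-kB motif had 10 letters, opening with GGG and closing with TTTCC around 2 free bases. Cxcl13 is at chr5:95956839-95956938 on the plus strand, Cxcl2 at chr5:90903799-90903898 on the plus strand and Pf4 at chr5:90772335-90772434 on the plus strand. Ccl6 is at chr11:83593088-83593187 and Ccl9 at chr11:83578637-83578736, both on the minus strand.
Cxcl13: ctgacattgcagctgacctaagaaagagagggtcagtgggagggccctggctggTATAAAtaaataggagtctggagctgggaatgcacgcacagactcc
Cxcl2: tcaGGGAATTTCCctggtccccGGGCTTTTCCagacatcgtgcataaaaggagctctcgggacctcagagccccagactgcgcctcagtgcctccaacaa
Pf4: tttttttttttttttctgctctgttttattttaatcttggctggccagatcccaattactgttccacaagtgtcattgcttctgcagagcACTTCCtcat
Ccl6: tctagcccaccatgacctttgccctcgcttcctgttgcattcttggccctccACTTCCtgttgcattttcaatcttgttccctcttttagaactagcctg
Ccl9: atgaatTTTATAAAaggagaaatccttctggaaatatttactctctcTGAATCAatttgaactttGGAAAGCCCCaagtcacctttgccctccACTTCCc
The window of Cxcl2 held 2 NF-kB matches, 97 and 78 bases before the start, and 1.41% of 32851 promoters held at least 1 such match. Ccl9 was the other member with an NF-kB match, and on the opposite strand. Its window also held a match to AP-1, which 6.75% of promoters hold, and a pair of overlapping TATA box matches on opposite strands (TTTATAAA), and a further TATA box match lay outside the printed bases, 224 bases before the start. Cxcl13 had 1 TATA box match 46 bases before the start, and 12.4% of promoters held one. ETS matches, held by 19.7% of promoters, were found in Pf4, Ccl6 and Ccl9. In Ccl6 and Ccl9, which are neighbours on chromosome 11, the ETS match lies in an identical run of 13 bases, gccctccacttcc, that starts 55 and 14 bases before the start. The Cxcl14 window held no match to these letters and is not printed, since it lies inside the annotated span of the gene (chr13:56288643-56296811, minus strand). A match is a description of the sequence and not a site shown to be bound. The other 4 genes were not searched.

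Several of the 10 genes lie in clusters of the mouse genome, given here as RefSeq spans on GRCm38.p6. On chromosome 5, Pf4 (chr5:90772435-90773383) and Cxcl2 (chr5:90903899-90905938) lie in the CXC cluster, and Cxcl13 (chr5:95956939-95961068) and Ccl24 (chr5:135569935-135573123) lie apart from it. On chromosome 11, Ccl2 (chr11:82035577-82037452) and Ccl7 (chr11:82045712-82047525) are neighbours, as are Ccl9 (chr11:83572917-83578636) and Ccl6 (chr11:83587886-83593087), and Cxcl16 is at chr11:70454389-70459984.

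Chemokine RNA in PMs was concentrated in 5 genes. The level per length, in TPM (counts per base of transcript on a common total), was far above that of the other 5 in every control mouse for Cxcl13, Ccl6, Pf4, Ccl9 and Ccl24. In control mice Cxcl13 had the highest level, with 4069, 5889 and 7424 TPM, and ranked between 10 and 22 among all genes with a known transcript length. Ccl6 came second in each control mouse with 3322, 4187 and 5294 TPM. Pf4 followed with 1333, 2365 and 2885 TPM, then Ccl9 with 723, 785 and 1174 TPM and Ccl24 with 370, 591 and 654 TPM. This order was the same in the 3 control mice, and of neighbouring genes in it only Cxcl13 and Ccl6 had ranges that overlapped.

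The order below these 5 genes was less clear. Cxcl14 ranked sixth in control mice with 31.3, 48.9 and 36.1 TPM, and its range overlapped that of Cxcl2, with 17.2, 48.3 and 25.1 TPM. Cxcl16 had 18.6, 12.3 and 6.47 TPM and exceeded Cxcl2 in control mouse 1 only. Ccl2 stayed between 0.795 and 1.63 TPM, and Ccl7 was at 0 in control mice.

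In diseased-BWF1 mice Cxcl13 was no longer first in each mouse. Cxcl13 had 1385, 2481 and 2894 TPM and Ccl6 had 2278, 2293 and 4110 TPM, so that Ccl6 was above Cxcl13 in mice 1 and 3 and below it in mouse 2. Among all genes with a known transcript length Cxcl13 ranked between 30 and 99 and Ccl6 between 13 and 54. Pf4 remained next in each mouse with 1188, 851 and 1169 TPM, next to Ccl9 with 686, 841 and 1140 TPM, and in mice 2 and 3 these neighbours were close. Ccl24 came next with 213, 224 and 125 TPM, and in mouse 3 it was close to Cxcl14 (117 TPM). Ccl24 ranked between 210 and 370 among these genes in control mice and between 553 and 1124 in diseased-BWF1 mice. Cxcl14 showed the opposite order, with ranks of 2883 to 4309 in control and 1018 to 1596 in diseased-BWF1 mice.

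**Figure D1:**
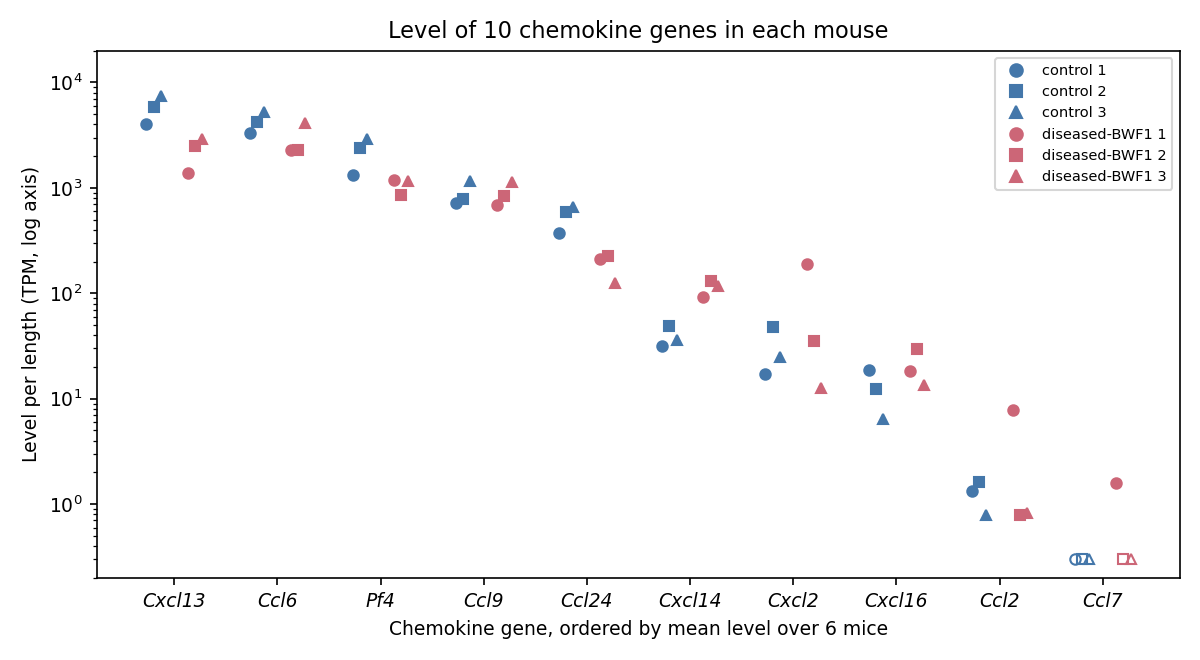
Level per length of the 10 chemokine genes in each mouse, in TPM on a log axis, with genes ordered by their mean over 6 mice. Each point is 1 mouse, blue for control and red for diseased-BWF1, and open symbols at the lower edge are mice with 0 counts; Cxcl14 is the gene whose diseased-BWF1 mice all lie above the control mice, while Cxcl13, Pf4 and Ccl24 show the opposite arrangement.

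Groups were compared with edgeR on counts over 10505 genes, and calls needed a Benjamini-Hochberg adjusted p below 0.05 together with a 1.5-fold difference or more. Of the 10 chemokine genes, 8 passed the filter on low counts, and Ccl2 and Ccl7 did not. Cxcl14 was called higher in diseased-BWF1 mice, beside 0.4% of all tested genes called higher, and 0 chemokine genes were called lower, beside 0.819%. An unadjusted p under 0.05 in edgeR was found for 4 of the 8, Cxcl14, Cxcl13, Pf4 and Ccl24, beside 13.2% of tested genes. DESeq2, which the study used, called 4 of the 8, beside 3.54% of tested genes: Cxcl14 higher, beside 1.27% of tested genes, and Cxcl13, Pf4 and Ccl24 lower, beside 2.28%. For the same 4 genes the mice of the 2 groups did not overlap, with 1 gene higher beside 9.59% of tested genes and 3 lower beside 11.2%. The exact two-sided permutation test gave p = 0.1 for each of them, the smallest p that 3 mice against 3 allow. The median log2 fold change of the 8 genes was -0.40, and that of all tested genes was 0.0053.

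Cxcl13, the B cell attractant that binds Cxcr5, had the most counts of the CXC genes. Normalized counts were 7107, 10526 and 15165 in control mice (10932 ± 4045, SD, n = 3) and 2363, 4467 and 4991 in diseased-BWF1 mice (3940 ± 1391, n = 3). Each diseased-BWF1 mouse lay below the lowest control mouse, control mouse 1. The log2 fold change was -1.48 ± 0.36 (SE; 95% interval -2.32 to -0.63), a control level 2.79 times that of diseased-BWF1 mice. It did not pass in edgeR (adjusted p = 0.127) and passed in DESeq2 (adjusted p = 0.00119). Over the fits without 1 mouse the log2 fold change lay between -1.72 and -1.16, with edgeR adjusted p between 0.125 and 0.271.

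Pf4 encodes platelet factor 4, a CXC chemokine best known from platelet granules that binds glycosaminoglycans. It had 1191, 2161 and 3013 normalized counts in control mice (2122 ± 912, n = 3) and 1037, 784 and 1031 in diseased-BWF1 mice (950 ± 144, n = 3). The groups did not overlap, but the gap between control mouse 1 and the highest diseased-BWF1 mouse was small beside the range of control mice. The log2 fold change of -1.16 ± 0.32 (SE; 95% interval -1.92 to -0.40) did not pass in edgeR (adjusted p = 0.176) and passed in DESeq2 (adjusted p = 0.0122). It ranged from -1.45 to -0.82 over the fits without 1 mouse. The 7 platelet markers, among them Ppbp and Gp9, summed to 4.59 to 9.26 normalized counts in control mice and 7.06 to 8.50 in diseased-BWF1 mice, and at most 1 of the 7 had more than 3 counts in any library.

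Cxcl14, an epithelial and stromal chemokine that attracts monocytes and dendritic cells, differed in the other direction. Its normalized counts were 86.9, 139 and 117 in control mice (114 ± 26.1, n = 3) and 251, 374 and 321 in diseased-BWF1 mice (315 ± 61.5, n = 3). The lowest diseased-BWF1 mouse was well above the highest control mouse. The log2 fold change was 1.46 ± 0.22 (SE; 95% interval 0.95 to 1.98), which is 2.76 times the control level, with an edgeR adjusted p of 0.0335 and a DESeq2 adjusted p of 4.81e-06. The call rests on all 6 libraries: without any 1 mouse the log2 fold change stayed between 1.29 and 1.63 but the edgeR adjusted p lay between 0.0719 and 0.104. With age as a covariate the log2 fold change was 1.46 and the call was lost as well. Cxcl14 is not in the study's own list of upregulated genes, which came from DESeq2. The reason for this was not tested.

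The Cxcl14 counts were divided between RefSeq records in a way that differed from mouse to mouse. In control mice 1 and 2 all counts, 105 and 135, were on predicted records, whereas in control mouse 3 all 102 were on the curated record. Diseased-BWF1 mouse 1 had 172 counts on the curated record and 94 on predicted ones, and mice 2 and 3 had 1 count each on the curated record and 368 and 317 on predicted records. The gene sum separated the groups and the curated record alone did not, and with curated records alone Cxcl14 did not pass the filter and was not tested. Ccl24, the other gene with a predicted record that held counts, had 50.1% to 63.9% of its counts on the curated record in each mouse.

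**Figure D2:**
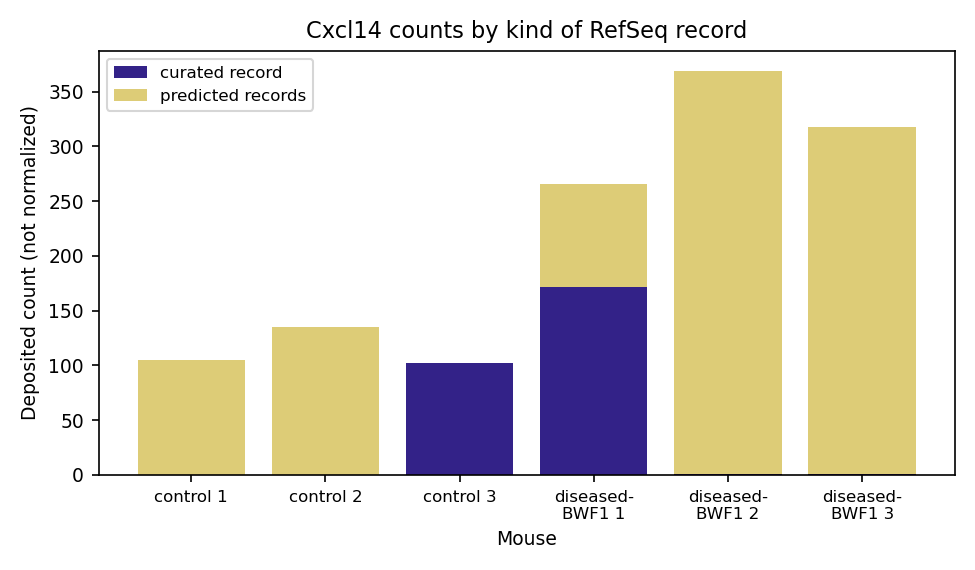
Deposited counts of Cxcl14 in each mouse, not normalized, stacked by kind of RefSeq record, with the curated record dark and the predicted records light. The totals are 105, 135 and 102 in control mice and 266, 369 and 318 in diseased-BWF1 mice, while the kind of record that holds them changes between mice of the same group.

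Cxcl2, a neutrophil attractant that binds Cxcr2 and is induced rapidly by NF-kB, varied more between diseased-BWF1 mice than most genes. Normalized counts were 29.0, 83.3 and 49.4 in control mice and 312, 61.8 and 21.2 in diseased-BWF1 mice. Diseased-BWF1 mouse 1 stood far above the rest, mouse 3 lay below all control mice, and the groups overlapped. The coefficient of variation over diseased-BWF1 mice was 119.6%, above that of 99.4% of tested genes. The log2 fold change was 1.30 ± 0.89 (SE; 95% interval -0.78 to 3.39, edgeR adjusted p = 0.592), and without diseased-BWF1 mouse 1 it was -0.37. Of the 75-base sequences of Cxcl2 transcripts, 4.57% also occur in Cxcl3, so a small part of its reads could be shared.

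The early response genes, transcription factors and feedback regulators induced within a short time of stimulation or handling of cells, are given beside Cxcl2 as other rapidly induced genes. Of 21 genes, 17 were tested, with log2 fold changes above 0 for 15 and below 0 for 2. In edgeR 0 were called, beside 1.22% of tested genes, although 7 had an unadjusted p under 0.05, beside 13.2%. DESeq2 called 5 of the 17 higher, beside 1.27% of tested genes: Fos, Junb, Ier2, Nr4a1 and Zfp36. The median over the 17 was a log2 fold change of 0.60. Summed normalized counts of the list were 6471, 5779 and 5845 in control mice and 13124, 11298 and 6262 in diseased-BWF1 mice. By this sum, diseased-BWF1 mice 1 and 2 lay apart from the control mice and mouse 3 did not. Dusp1 was a large part of it, with 1820, 1322 and 661 normalized counts in control mice and 3634, 3926.5 and 571 in diseased-BWF1 mice. Gene by gene, all diseased-BWF1 mice, mouse 3 included, lay above all control mice for 6 of the 17, beside 9.59% of tested genes. For 0 of the 17 they all lay below, beside 11.2%.

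Fos, a subunit of AP-1, had 121, 177 and 160 normalized counts in control mice and 1107, 620 and 221 in diseased-BWF1 mice (log2 fold change 2.09 ± 0.53, SE, edgeR adjusted p = 0.140). Dusp1, Nfkbia and Junb had the highest levels per length of the list. Their log2 fold changes were 1.10, 0.32 and 0.84, with edgeR adjusted p of 0.546, 0.675 and 0.0523. Relative to the control mean, Cxcl2 was at 5.78, 1.15 and 0.393 in diseased-BWF1 mice 1, 2 and 3, and Fos at 7.26, 4.07 and 1.45. Cxcl1, the close relative of Cxcl2, was at 3.18, 1.06 and 0.385. Cxcl2, Cxcl1 and Fos therefore had the same order of the 3 mice, but Fos was picked after its values were seen and other early response genes had other orders. Diseased-BWF1 mouse 1 was the highest of its group for 9 of the 17 early response genes, mouse 2 for 5 and mouse 3 for 3. Mouse 3 was the lowest for 12. The part of cell handling in these values was not tested.

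**Figure D3:**
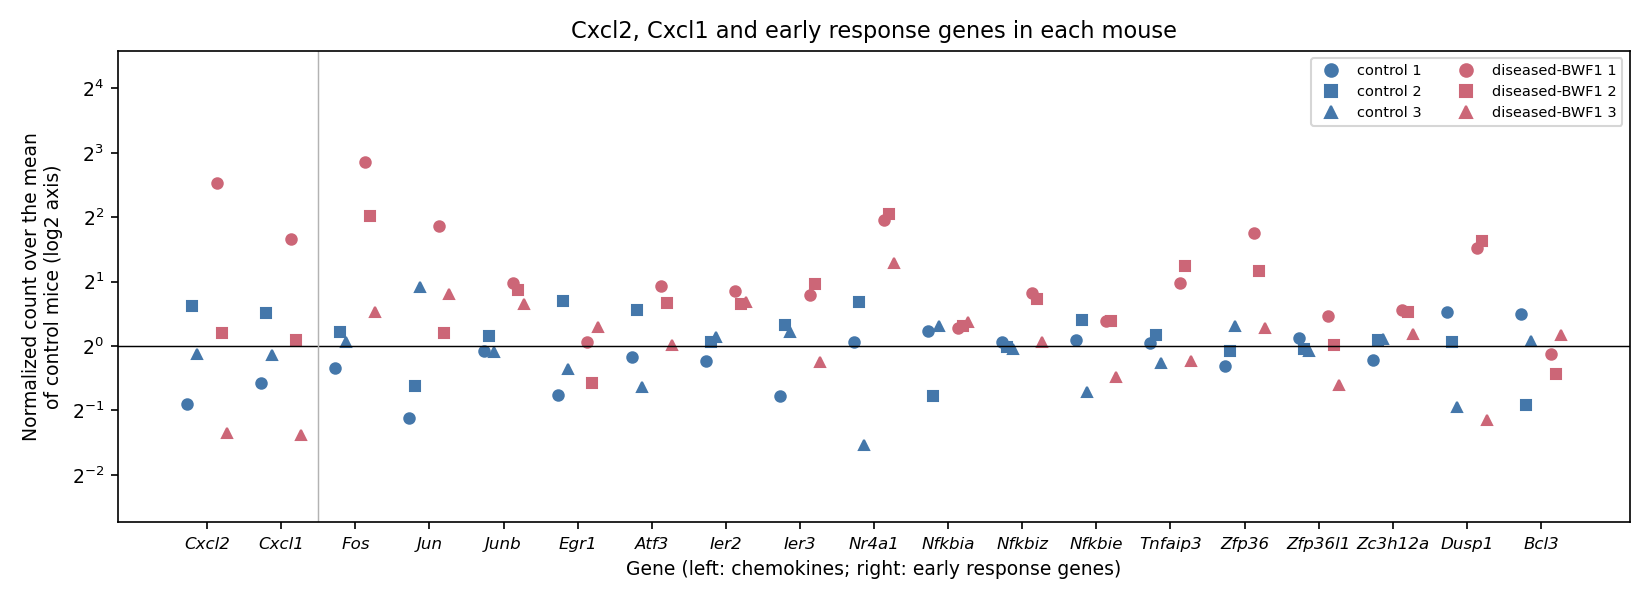
Normalized counts of Cxcl2, Cxcl1 and the 17 tested early response genes in each mouse, divided by the mean of the 3 control mice, on a log2 axis. Each point is 1 mouse, blue for control and red for diseased-BWF1, and the horizontal line is the control mean; for Cxcl2, diseased-BWF1 mouse 1 lies at 5.78 and mouse 3 at 0.393.

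Cxcl16, a membrane-bound chemokine that is shed by proteases and binds Cxcr6, was low in PMs and its groups overlapped. It had 76.1, 51.4 and 31.0 normalized counts in control mice and 72.7, 125 and 54.5 in diseased-BWF1 mice. The test in edgeR did not pass (log2 fold change 0.65 ± 0.40, SE; 95% interval -0.29 to 1.59; adjusted p = 0.547). The gene overlaps Zmynd15 on the opposite strand, and whether strand was used in counting is not given in the sources used here.

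Ccl6 and Ccl9 are neighbouring CC chemokine genes whose products bind Ccr1. Ccl6 had 7266, 9372 and 13540 normalized counts in control mice (10059 ± 3193, n = 3) and 4867, 5169 and 8876 in diseased-BWF1 mice (6304 ± 2233, n = 3). Diseased-BWF1 mouse 3 lay between control mice 1 and 2, so the groups overlapped. The log2 fold change was -0.68 ± 0.31 (SE; 95% interval -1.41 to 0.05, edgeR adjusted p = 0.415). Ccl6 overlaps E230016K23Rik on the opposite strand, with the same limit as for Cxcl16.

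Ccl9 was the abundant member that differed least between the groups. It had 3300, 3665 and 6269 normalized counts in control mice (4411 ± 1619, n = 3) and 3058, 3957 and 5138 in diseased-BWF1 mice (4051 ± 1043, n = 3). The ranges of the groups nearly coincided, and the log2 fold change was -0.13 ± 0.29 (SE; 95% interval -0.82 to 0.56, edgeR adjusted p = 0.894). The interval includes the value found for Ccl6. Without control mouse 3 it was 0.22 and without diseased-BWF1 mouse 1 it was 0.04.

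Ccl24, or eotaxin-2, attracts eosinophils through Ccr3 and is a product of alternatively activated macrophages. It had 727, 1190 and 1504 normalized counts in control mice (1141 ± 391, n = 3) and 409, 454 and 242 in diseased-BWF1 mice (368 ± 112, n = 3). All diseased-BWF1 mice lay below all control mice, and the log2 fold change of -1.63 ± 0.33 (SE; 95% interval -2.40 to -0.86) was the lowest among the 8 tested genes, with the control level at 3.10 times that of diseased-BWF1 mice. It did not pass in edgeR (adjusted p = 0.0730) and passed in DESeq2 (adjusted p = 7.53e-05). With age as a covariate it was called in edgeR at a log2 fold change of -1.65. Over the fits without 1 mouse it lay between -1.88 and -1.38, with edgeR adjusted p from 0.0754 to 0.206.

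Ccl2 and Ccl7, monocyte attractants that bind Ccr2, were close to the detection limit. Ccl2 had 2, 2 and 1 counts in control mice and 10, 1 and 1 in diseased-BWF1 mice, which is 0.424 CPM (exact Poisson 95% interval 0.138 to 0.990) and 1.05 CPM (0.543 to 1.84) over the pooled libraries of a group. Of the 12 counts in diseased-BWF1 mice, 10 came from mouse 1, which also had the highest Cxcl2. Ccl7 had 0 counts in control mice, for which a floor of 3 counts over the pooled libraries allows up to 0.254 CPM, and 2 counts in diseased-BWF1 mouse 1. These intervals pool the mice of a group and cover counting error only, not the spread between mice. PCR copies are counted like separate molecules, so the intervals may be too narrow even for counting error. No difference was detectable at this depth, and no fold change is given for Ccl7. Ccl2 also overlaps a gene on the opposite strand, Gm17268.

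**Figure D4:**
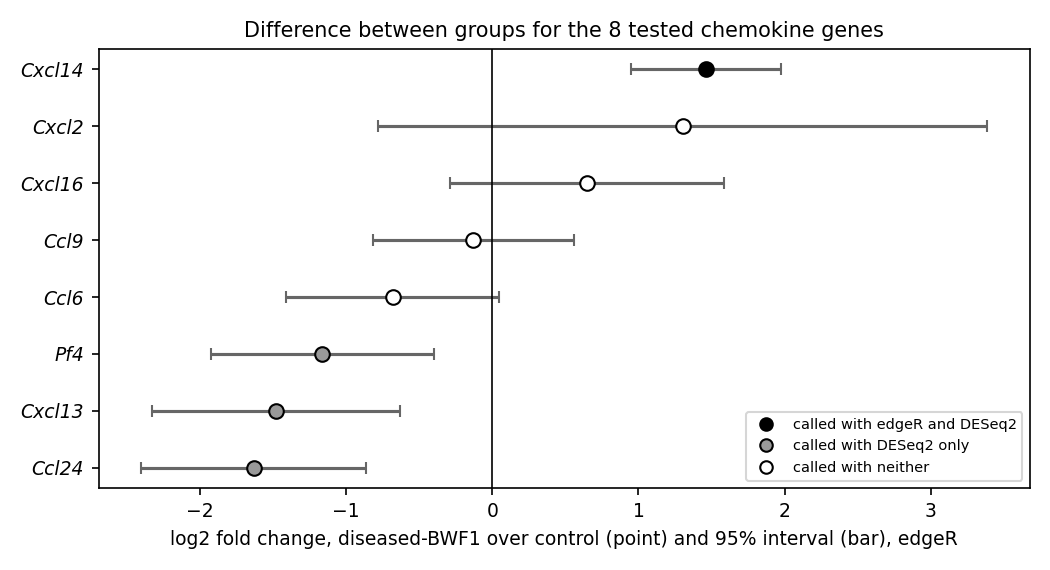
Log2 fold change of the 8 tested chemokine genes in diseased-BWF1 mice over control mice, with 95% intervals from edgeR. Filled black points passed in edgeR and DESeq2, grey points in DESeq2 alone and open points in neither; Cxcl14 is the only black point, at 1.46, and the grey points Pf4, Cxcl13 and Ccl24 lie between -1.16 and -1.63.

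The mice of a group differed together in several of the abundant chemokine genes. Control mouse 3 was the highest and control mouse 1 the lowest of its group for Cxcl13, Ccl6, Pf4, Ccl9 and Ccl24. Among diseased-BWF1 mice, mouse 3 was the highest and mouse 1 the lowest for Cxcl13, Ccl6 and Ccl9, but not for Pf4 or Ccl24. Coefficients of variation in control mice were 31.7% to 43.0% for these 5 genes, above those of 79.6% to 88.9% of tested genes, and Cxcl14 was less variable with 22.9% in control and 19.5% in diseased-BWF1 mice.

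The summed level of the 10 genes was 9885, 13928 and 17500 TPM in control mice (13771 ± 3810, n = 3) and 6059, 6886 and 9582 TPM in diseased-BWF1 mice (7509 ± 1842, n = 3). All control mice lay above all diseased-BWF1 mice, and the mean of control mice was 1.83 times that of diseased-BWF1 mice. This sum is led by Cxcl13 and Ccl6. It held 97.5% to 99.6% of the summed level of 39 chemokine genes in each mouse.

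The make-up of this sum differed between the groups for some genes. Cxcl13 held 41.2%, 42.3% and 42.4% in control mice and 22.9%, 36.0% and 30.2% in diseased-BWF1 mice. Ccl9 held 7.31%, 5.63% and 6.71% in control mice and 11.3%, 12.2% and 11.9% in diseased-BWF1 mice, so that its share separated the groups although its level did not. Ccl24 held 3.74%, 4.25% and 3.74% against 3.51%, 3.25% and 1.30%. Cxcl14 held 0.317%, 0.351% and 0.206% against 1.53%, 1.90% and 1.22%. The shares of Ccl6 and Pf4 overlapped between the groups, with Ccl6 at 30.1% to 33.6% in control and 33.3% to 42.9% in diseased-BWF1 mice and Pf4 at 13.5% to 17.0% and 12.2% to 19.6%. Shares of 1 sum are tied to each other, and they were computed after the levels were known, so they carry no test.

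Ratios of 2 chemokine genes within the same mouse do not depend on the library total. Cxcl13 over Ccl6, per length, was 1.23, 1.41 and 1.40 in control mice and 0.608, 1.08 and 0.704 in diseased-BWF1 mice. Ccl6 over Ccl9 was 4.60, 5.34 and 4.51 in control mice and 3.32, 2.73 and 3.61 in diseased-BWF1 mice. Neither ratio overlapped between the groups. Ccl24 over Ccl9 was 0.512, 0.754 and 0.557 against 0.310, 0.266 and 0.109, and Cxcl14 over Cxcl13 was 0.00770, 0.00831 and 0.00486 against 0.0669, 0.0527 and 0.0405, again without overlap. Pf4 over Ccl6 did overlap, with 0.401, 0.565 and 0.545 against 0.522, 0.371 and 0.284. These 5 ratios were chosen after the levels were seen and are given as descriptions.

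**Figure D5:**
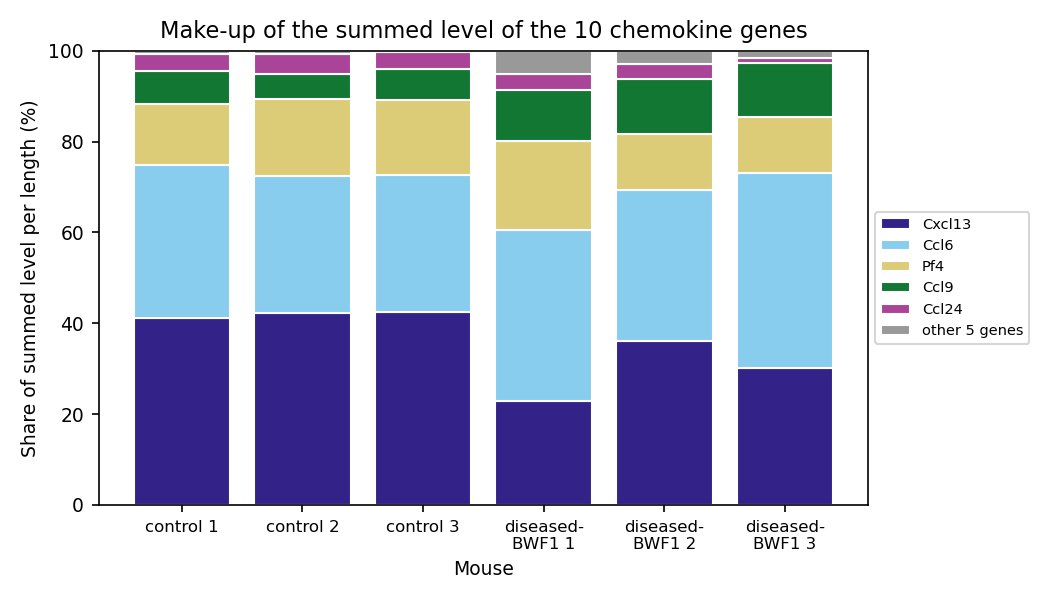
Share of each chemokine gene in the summed level per length of the 10 genes, in percent, with 1 bar per mouse and the 5 less abundant genes joined. The dark lowest segment is Cxcl13, at 41.2% to 42.4% in control mice and 22.9% to 36.0% in diseased-BWF1 mice, and the green segment is Ccl9, at 5.63% to 7.31% and 11.3% to 12.2%.

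The rest of the chemokine family was little expressed in these PMs beside the 5 most abundant genes. Mean levels over the 6 mice were 36.2 TPM for Cxcl1 and 27.8 TPM for Cxcl12, above the 16.4 TPM of Cxcl16. Cxcl14 and Cxcl2 were higher, at 76.1 and 54.7 TPM, and Ccl2 and Ccl7 lower, at 2.20 and 0.265 TPM. Of 29 further chemokine genes, 2 passed the filter, 27 did not and 8 of these had 0 counts in every library. Of the 2 tested, 0 were called in edgeR or DESeq2, beside 1.22% and 3.54% of tested genes. With edgeR, 0 had an unadjusted p under 0.05, beside 13.2%. Cxcl1 had 28.1, 59.7 and 37.9 normalized counts in control mice and 133, 44.6 and 16.1 in diseased-BWF1 mice (log2 fold change 0.64, edgeR adjusted p = 0.749). Cxcl12, the stromal ligand of Cxcr4, had 84.4, 146 and 136 normalized counts in control mice and 84.0, 162 and 25.2 in diseased-BWF1 mice (log2 fold change -0.43, edgeR adjusted p = 0.797). The next by level, Ccl3, had 2, 8 and 12 counts in control mice and 24, 5 and 8 in diseased-BWF1 mice and was below the filter.

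Receptors were measured in the same PMs, so they describe what these cells could respond to and not the cells that the chemokines attract. Of 23 receptor genes, 7 were tested and 0 were called in edgeR or DESeq2, beside 1.22% and 3.54% of tested genes. An unadjusted p under 0.05 was found for 1, beside 13.2% of tested genes: Ccrl2 (log2 fold change 1.02, edgeR adjusted p = 0.276). Ccr1, the receptor of Ccl6 and Ccl9, had the highest level per length, a mean of 391 TPM over the 6 mice. Its normalized counts were 1727, 1790 and 2176 in control mice and 1645, 1424 and 1673 in diseased-BWF1 mice. The groups did not overlap, as for 11.2% of tested genes in this direction, but the difference was small. The log2 fold change was -0.27 ± 0.15 (SE; 95% interval -0.62 to 0.08, edgeR adjusted p = 0.509).

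Ackr3, a scavenging receptor of Cxcl12, had 209, 178 and 144 normalized counts in control mice and 167, 645 and 268 in diseased-BWF1 mice (log2 fold change 1.02, edgeR adjusted p = 0.410). Diseased-BWF1 mice differed from each other by more than the group means did. Cxcr5, the Cxcl13 receptor of B cells, had at most 5 counts in any library, as did Ccr3 and Cxcr6, and Ccr2 had 2 to 31.

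Among 13 genes that act on chemokines, 8 were tested. In edgeR 1 was called higher and 1 lower, beside 0.4% and 0.819% of tested genes, and DESeq2 called the same 2. Mmp14, a membrane-bound matrix metalloproteinase that cleaves several chemokines, rose from 5.79, 12.3 and 5.74 normalized counts in control mice to 78.4, 52.7 and 88.8 in diseased-BWF1 mice (log2 fold change 3.19 ± 0.37, SE, edgeR adjusted p = 0.0168). Hpse, the heparanase that degrades the heparan sulfate to which chemokines bind, fell from 1052, 940 and 975 to 541, 513 and 433 normalized counts (log2 fold change -0.999 ± 0.14, SE, edgeR adjusted p = 0.0264). With any 1 of the 6 mice left out, edgeR called 0 or 1 gene of the list. With curated records alone, or with the replicate number as a block, it called neither. With at least 10 counts required in every library Mmp14 was not tested and Hpse was called. The most abundant genes of the list did not pass the test: the syndecan Sdc3 had a log2 fold change of -0.10 (edgeR adjusted p = 0.858) and the granule proteoglycan Srgn one of -0.02 (edgeR adjusted p = 0.970). The sheddases Adam10 and Adam17, which release Cxcl16, had log2 fold changes of 0.17 and -0.12 and did not pass either (edgeR adjusted p = 0.753 and 0.805).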

How the data were processed

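RNA of cell-sorted PMs from 3 control and 3 diseased-BWF1 mice was sequenced with a stranded mRNA kit and paired-end reads. The authors deposited, for each mouse, estimated counts per RefSeq transcript record as whole numbers, without normalization. The submitters' processing notes name Salmon 0.8.0, GRCm38.p6 and DESeq2, without their roles, and how reads shared by records were divided is not given in the sources used here. Of 107193 records, 86466 matched a gene of the RefSeq table (45754 with the same version, 40712 with another), and the 20727 others were left out. Counts were summed per gene. Genes were compared with edgeR 4.0.16 in R 4.3.3 (filterByExpr, TMM, glmQLFit and glmQLFTest, Benjamini-Hochberg adjustment over 10505 genes, common dispersion 0.0543), with thresholds of 0.05 and 1.5 from the study's methods. Normalized counts are counts divided by DESeq2 1.42.0 size factors (0.871 to 1.21). Levels per length (TPM) used GENCODE transcripts linked to the RefSeq records, or the longest GENCODE transcript of the gene where none was linked. A length was known for 17123 of 19833 genes with a count. Each gene had 1 length, so records without a linked transcript were divided by the length of other transcripts of their gene. Single genes were also tested by an exact two-sided permutation test on log2 normalized counts. Errors are SDs over mice or SEs of the fit.

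The chemokine genes, the other gene lists, the marker lists and the alternatives were chosen with earlier results of these data known. All 10 chemokine genes are named. Of each other list of the pathway, the genes called and the 3 with the highest level per length are named, and Fos, Ccrl2, Adam10, Adam17 and receptors of the chemokine genes were added after their values were seen. A gene that this rule covers and a criterion of the sort are not reported here. The markers Ighm and Trac had no matched record. Libraries were checked for duplicates in pairs, and the lowest chi-square per gene of any pair was 9.59, where 1 would be sampling noise. On simulated data for this comparison with 200 of 10505 genes changed, edgeR recovered 27% of genes changed by 1 on the log2 scale and 85% of those changed by 2, with 122 calls of which 8.20% were false, and made 0 calls when no gene was changed. The analysis had been planned for raw counts. The deposited values are whole numbers, so rounding left them as they were. Alternatives were DESeq2, limma-voom 3.58.1, other normalizations and filters, robust dispersion, age as a covariate, the replicate number as a block, curated records alone, another length and each mouse left out.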

Additional observations from a re-analysis of the deposited data

How the results depend on the processing

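Of 127 log2 fold changes recomputed for the 8 tested chemokine genes under the other settings, 111 kept their direction and side of the threshold, 6 passed it, 7 no longer did and 3 changed sign. These 3 were Cxcl2 without diseased-BWF1 mouse 1 and Ccl9 without control mouse 3 or without diseased-BWF1 mouse 1. Without 1 mouse, Cxcl2 ranged from -0.37 to 1.81 and Ccl9 from -0.33 to 0.22. Over the alternatives the adjusted p ranged from 4.81e-06 to 0.104 for Cxcl14, 0.00119 to 0.271 for Cxcl13, 0.0122 to 0.381 for Pf4 and 7.53e-05 to 0.234 for Ccl24.

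edgeR called 128 genes, of which 1 was a chemokine gene of the 10. DESeq2 called 372 and 4, the fit with no filter 259 and 3, at least 10 counts in every library 84 genes in all, and curated records alone 16 and 0. Leaving out 1 mouse gave 21 to 51 calls over all genes, 0 to 0 among the 10 chemokine genes, 0 to 1 among receptors (Ccrl2 without diseased-BWF1 mouse 3), 0 to 1 among the genes that act on chemokines and 0 to 1 among early response genes. Among the genes that act on chemokines, 1 was called with at least 10 counts in every library (Hpse) and 0 with curated records alone. Among early response genes, DESeq2 called 5 and the fit with no filter 4. The cause of these differences was not tested. Fits with a left-out mouse or with curated records alone also had fewer data.

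With the replicate number as a block, edgeR called 38 genes, of which 1 was a chemokine gene of the 10 (Cxcl14), and 0 of the genes that act on chemokines. Same-numbered mice are different animals, and their deviations from the group means correlated at 0.107, 0.0015 and 0.152. Those of numbers 1 and 3 were higher than for any pair with unlike numbers. The mice with number 2 were each closer to another number than to their own. The numbers are not taken to pair the mice, and whether they mark a shared batch was not tested. DESeq2 with the replicate block, chosen after seeing the data, called 253 genes, 5 of the 10 chemokine genes (with Ccl6 added) and 3 early response genes. DESeq2 without diseased-BWF1 mouse 1, also chosen after seeing the data, called 268 genes, 3 of the 10 chemokine genes, 1 receptor (Ackr3) and 2 early response genes, with log2 fold changes of -0.37 for Cxcl2 and 0.047 for Ccl9. In the order of levels, curated records alone put 3 genes at another rank in each group, and leaving out diseased-BWF1 mouse 3 moved 2. Depth limits what can be said of Ccl2 and Ccl7.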
